A study of Mus musculus with 4 samples.

Results

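The response of lung cells of *Hps1*-/- mice to bleomycin was described from 2 of the 4 deposited RNA-Seq libraries, BLEO-HPS1 (*Hps1*-/- mice given bleomycin) and PBS-HPS1 (*Hps1*-/- mice given PBS), chosen by their genotype and treatment labels. The other 2 libraries, BLEO-WT and PBS-WT, came from wild-type (WT) mice given the same agents. *Hps1* encodes a subunit of BLOC-3, a complex needed to build lysosome-related organelles, and its loss models Hermansky-Pudlak syndrome type 1, in which lung fibrosis develops. Both *Hps1*-/- groups carry the inherited mutation in every cell type, so neither is a control for it. Bleomycin breaks DNA and injures the alveolar lining, and it is used in mice to set off lung fibrosis. The study's methods describe both intraperitoneal and intratracheal bleomycin, and do not say separately which was used for the sequenced cells. Lung cells were depleted of those carrying CD3, CD11b, CD45R, Ly76, Ly6G or Ly6C, antigens of T cells, myeloid cells, B cells, erythroid cells, neutrophils and monocytes, and sorted as Thy1.2+ICOS+T1/ST2+ lung cells, the gate used for group 2 innate lymphoid cells (ILC2s), and cultured with IL-2. The number of mice behind each library was not given. The study's methods give 38873 cells for PBS-HPS1 and 128647 cells for BLEO-HPS1, so the treatment and the number of cells cannot be told apart. The libraries held 77703133 and 77428740 reads counted on genes.

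ILC2s are lymphocytes without antigen receptors that answer epithelial alarmins such as IL-33 through T1/ST2. They release type 2 cytokines under the control of GATA3 and RORα. In the injured lung, resident alveolar macrophages are joined by macrophages from blood monocytes, which take up debris and lipids, present antigen and make complement C1q, while fibroblasts lay down collagen. Each of these cell types has genes by which it can be recognised in a mixed RNA sample.

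The RNA went against the label of an ILC2 sort. Levels below are in CPM, reads set to a common library size with TMM factors, which correct for the share of reads taken by a few abundant genes. Levels per kilobase of transcript were ranked over protein-coding genes, with those of the shortest transcripts left out. The highest gene of nuclear origin in PBS-HPS1 was *Lyz2*, the lysozyme of macrophages, at 4623 CPM per kb. In BLEO-HPS1 it was *Apoe*, an apolipoprotein of macrophages, at 9722 CPM per kb. *Gata3*, the master regulator of ILC2s, stood at 12.2 and 8.37 CPM per kb and was in places 4293 and 5950 of the 21299 genes ranked. *Il1rl1*, which encodes T1/ST2, stood at 7.53 and 4.48 CPM per kb. Reads on the type 2 cytokine genes were few. There were 105 in PBS-HPS1 and 26 in BLEO-HPS1 on *Il5*, 142 and 17 on *Il13*, and 190 and 32 on *Il4*. *Ptgdr2*, the gene of the CRTH2 receptor, had 81 and 19 reads. The genes of the antigens used to deplete lineage-positive cells were also counted, and all 8 were compared. With bleomycin 5 were at least 2-fold higher and 1 lower, beside 26.6% and 19.6% of all genes compared. After the correction for transcript GC content and length described below, 6 were higher and 0 lower, beside 17.5% and 8.41%. Their summed level was 1523 CPM in PBS-HPS1 and 1297 CPM in BLEO-HPS1. In PBS-HPS1 most of that sum was *Ptprc*, of which CD45R is an isoform and which leukocytes in general express, at 1151 CPM. In BLEO-HPS1 *Ptprc* stood at 333 CPM, and most of the sum came from the other antigen genes. *Ptprc* was the member called lower, with a log2 ratio of -1.79 that was -0.10 after the correction. The libraries are therefore described below as cells sorted through an ILC2 gate, with no cell type given to them. In such bulk RNA, more cells of a type and more RNA per cell cannot be told apart.

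A gene was compared if it reached 1 CPM in either *Hps1*-/- library, which left 14516 of 49315 genes. A ratio is the log2 of the level in BLEO-HPS1 over that in PBS-HPS1, with 2 reads added as a prior. With a single library per group there is no replicate and no test, and a gene was called higher or lower when its level differed at least 2-fold. Bleomycin went with 3861 genes called higher, 26.6% of those compared, and 2844 called lower, 19.6%. The median log2 ratio of all genes was 0.27, and the middle 95% of genes lay between -2.47 and 2.32. The count of calls in each direction depended on the scaling. With total reads in place of TMM factors the median moved by -0.64, and 1370 genes were called higher and 4815 lower, so that 22.2% of the calls were increases in place of 57.6%. Gene groups are therefore read against the median and the shares of all genes. Intervals given with single ratios are exact 95% Clopper-Pearson intervals, which cover the counting of reads and not the spread between mice or the copying of molecules by PCR.

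The ratio followed the base composition and length of the transcript. Genes were set in 10 equal bins of GC content and 5 of length. In the bin with the lowest GC content (29.6% to 41.4%), the median log2 ratio was -1.29, and 60.0% of genes were called lower. In the bin with the highest GC content it was 1.05, and 53.1% of genes were called higher. The bin of the shortest transcripts had a median of 1.07 and that of the longest a median of -0.68. At like GC content the ratio still went with length: within the lowest bin the median went from -0.76 in the shortest to -1.67 in the longest transcripts, and within the highest bin from 1.43 to 0.52. Among the 11124 genes of a mean log2 CPM over 2, the ratio had a Spearman's rho of 0.60 with GC content and of -0.51 with length. These are descriptions across genes of the same libraries, and genes are not independent replicates. In WT mice the same pattern was shallower, with medians from -0.57 in the lowest to 0.34 in the highest bin of GC content.

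To show what such transcripts look like, 2 coding windows were read from GENCODE M21 transcripts (build GRCm38), with G and C in capitals and A and T in lower case. *C1qa* had the highest GC content among the 20 largest increases and *Lamp3* the lowest among the 20 largest decreases, both ranked as described next. The *C1qa* window lies in exon 3 on the minus strand at chr4:136896579-136896728, with 96 of 150 bases G or C. The *Lamp3* window lies in exon 2 on the minus strand at chr16:19701233-19701382, with 49 of 150. Both windows are more extreme than the longest transcripts that the bins used. Those had a GC content of 59.5% for *C1qa* and 38.7% for *Lamp3*, beside 64% and 32.7% in the windows.
C1qa: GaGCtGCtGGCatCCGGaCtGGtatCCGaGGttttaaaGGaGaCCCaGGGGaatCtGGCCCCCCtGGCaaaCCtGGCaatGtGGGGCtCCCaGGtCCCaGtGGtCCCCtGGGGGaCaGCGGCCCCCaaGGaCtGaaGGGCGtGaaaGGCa
Lamp3: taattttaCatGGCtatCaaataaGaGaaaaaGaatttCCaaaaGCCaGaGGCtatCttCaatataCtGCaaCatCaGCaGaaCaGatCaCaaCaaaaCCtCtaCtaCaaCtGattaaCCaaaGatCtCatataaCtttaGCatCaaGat

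**Figure D1:**
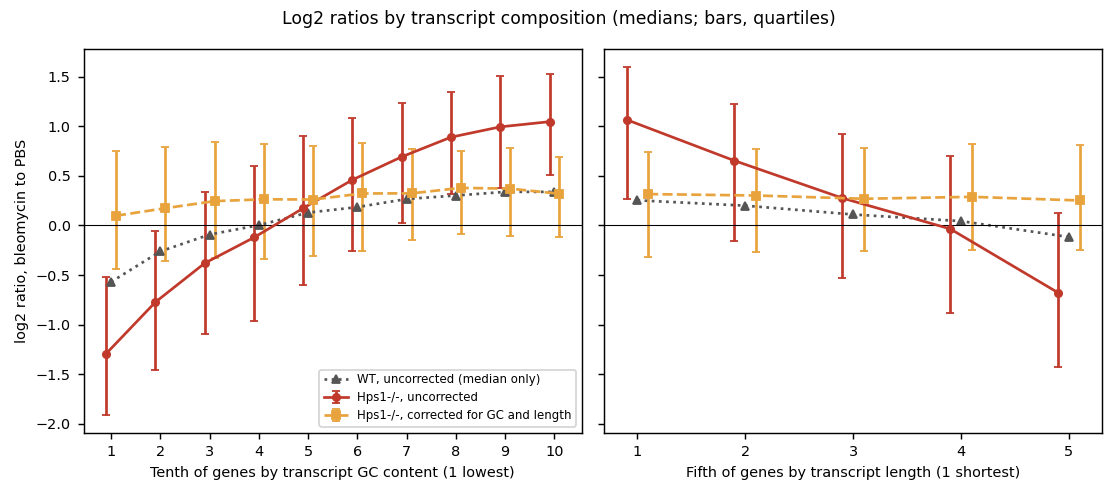
Median log2 ratio of bleomycin to PBS (vertical axis) for genes in 10 bins of transcript GC content and in 5 bins of transcript length (horizontal axes), with bars for the quartiles over genes. In the *Hps1*-/- libraries (red) the median went from -1.29 to 1.05 over the bins of GC content, after the correction (orange) it lay between 0.10 and 0.38, and in WT (grey) it went from -0.57 to 0.34.

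A second ratio was therefore computed, from which a smooth curve over GC content and transcript length was subtracted. After this correction 2542 genes (17.5% of 14489 with a known transcript) were called higher and 1218 (8.41%) lower, with a median of 0.29, and rho was 0.05 with GC content and -0.04 with length. Both ratios are given for the gene groups and for most single genes below, with the uncorrected ratio first. A correction of this kind also removes any true difference that goes with GC content or length, and which of the ratios is nearer to the change in the cells was not tested. Of the compared genes, 1683 (11.6%) were called higher and 983 (6.78%) lower by both ratios.

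Of the 20 largest increases by both ratios, 6 were in the macrophage gene lists described below (*Apoe*, *Arg1*, *C1qa*, *C1qb*, *C1qc* and *Trem2*). *Cd5l*, a secreted protein of tissue macrophages, had 0.273 CPM in PBS-HPS1 and 22.9 CPM in BLEO-HPS1, a log2 ratio of 6.27 (interval 5.85 to 7.0) and of 5.74 after correction. *Arg1*, the arginase of alternatively activated macrophages that is also made by ILC2s, had 4.59 and 257 CPM, a ratio of 5.80 (5.68 to 5.95) and 5.49 corrected. *Saa3*, an acute-phase apolipoprotein, had 0.454 and 25.2 CPM, with ratios of 5.71 and 5.53. These 3 genes were at a few CPM or less with PBS and at over 20 CPM with bleomycin. The 3 chains of complement C1q, the starter of the classical complement pathway, sit side by side on chromosome 4 and were all higher. *C1qa* (ENSMUSG00000036887, chr4:136895917-136898803) had 73.2 CPM with PBS and 2047 CPM with bleomycin. *C1qb* had 51.7 and 1720 CPM, and *C1qc* had 44.1 and 1189 CPM. Their ratios were 4.80, 5.06 and 4.75, and 3.64, 3.95 and 3.68 after correction. *Apoe* (ENSMUSG00000002985, chr7:19696109-19699188) had 548 and 13689 CPM, a ratio of 4.64 (4.63 to 4.65) and 3.60 corrected, and became the most abundant per kilobase of the protein-coding genes ranked. *Trem2*, a lipid-sensing receptor of macrophages, had 20.5 and 423 CPM, with ratios of 4.37 and 4.51. *Fcna*, a ficolin of the lectin pathway of complement, had 2.34 and 62.2 CPM, with ratios of 4.72 and 3.76. Among the other genes in the top 20 were *Serpina3n*, a protease inhibitor (13.5 and 365 CPM), and *Timp1*, an inhibitor of matrix metalloproteinases (1.65 and 41.4 CPM). *Oas1g*, an interferon-induced sensor gene, was also among them, at 0.768 and 14 CPM.

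Macrophage gene lists differed in direction. Of 28 genes of monocytes and interstitial macrophages, 20 were called higher and 0 lower, with a median log2 ratio of 1.39 (1.18 corrected, with 16 higher and 0 lower), beside 0.27 for all genes. *Csf1r*, the receptor for the macrophage growth factor, had 379 and 1603 CPM and a ratio of 2.08 (1.87 corrected). Of 19 genes linked to lipid-handling and scar macrophages, 12 were called higher and 1 lower, with a median of 1.93 (1.49 corrected). *Gpnmb*, a glycoprotein of lipid-laden macrophages, had 102 and 859 CPM and a ratio of 3.07 (3.16 corrected), *Spp1*, which encodes osteopontin, had 88.4 and 444 CPM and a ratio of 2.33 (2.51 corrected), and *Ctsb*, which encodes cathepsin B, had 772 and 4226 CPM and a ratio of 2.45 (2.81 corrected). The member called lower was *Lpl*, lipoprotein lipase, at 448 and 176 CPM, whose ratio was -1.35 before and -0.41 after correction. The summed level of the monocyte and interstitial macrophage list was 4156 CPM in PBS-HPS1 and 26594 CPM in BLEO-HPS1, the latter including 13689 CPM of *Apoe*.

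Genes of resident alveolar macrophages went the other way. Of 19 compared, 1 was called higher and 10 lower, with a median of -1.02 (-1.22 corrected, with 1 higher and 11 lower). *Ear1*, an eosinophil-associated ribonuclease that alveolar macrophages express, had 165 and 14.8 CPM, a ratio of -3.47 (-3.57 to -3.38) and -3.78 corrected. *Krt79*, a keratin gene that marks alveolar macrophages, had 218 and 26.3 CPM, with ratios of -3.05 and -3.40. *Siglec5*, the mouse gene of Siglec-F, had 146 and 29.0 CPM, with ratios of -2.33 and -2.52. *Pparg*, the transcription factor that maintains these cells, had 67.3 and 23.5 CPM, with ratios of -1.51 and -1.91. The exception was *Fabp5*, a fatty acid binding protein, at 43.0 and 221 CPM with ratios of 2.36 and 2.40. *Chil3*, a chitinase-like protein and the most abundant member, had 3567 and 1758 CPM with a ratio of -1.02 (-1.01 corrected). *Mrc1*, the mannose receptor, had 621 and 266 CPM, and its ratio of -1.23 became -0.02 after correction.

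**Figure D2:**
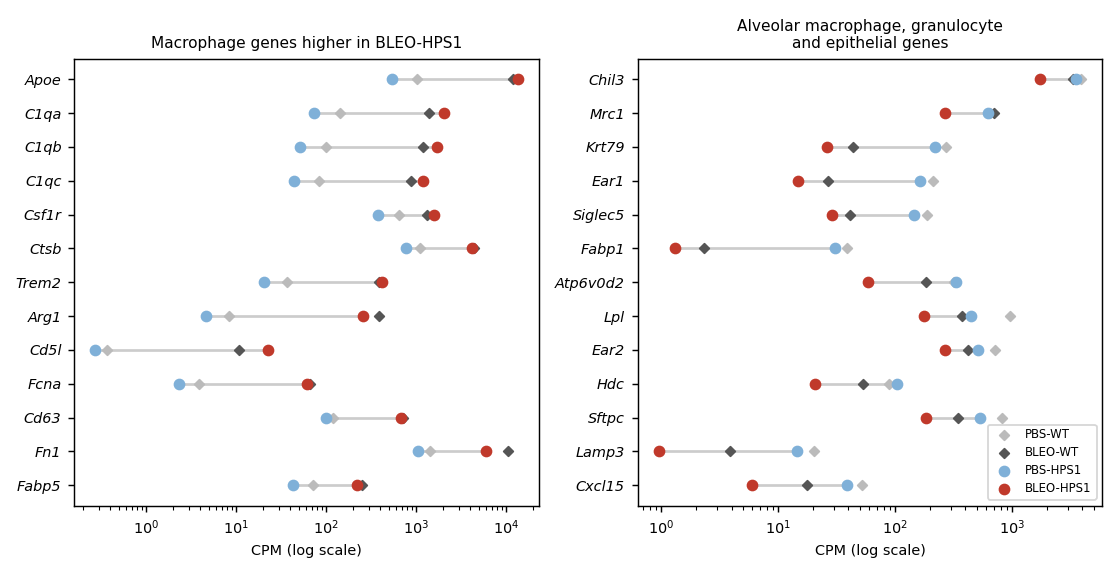
CPM (horizontal log axis) of genes named in the text, in PBS-HPS1 (blue), BLEO-HPS1 (red), PBS-WT (light grey) and BLEO-WT (dark grey), with 1 point per library. *Apoe* went from 548 to 13689 CPM and *Arg1* from 4.59 to 257 CPM in *Hps1*-/- mice, while *Ear1* went from 165 to 14.8 CPM and *Sftpc* from 538 to 185 CPM.

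The largest decreases included genes of several cell types. *Coro6*, a coronin that binds actin, had 25 and 1.01 CPM, a ratio of -4.59 (-5.01 to -4.27) and -5.19 corrected. *Fabp1*, a fatty acid binding protein best known from liver, had 30.9 and 1.31 CPM, with ratios of -4.53 and -5.03. *Kcna3*, the Kv1.3 potassium channel of lymphocytes and macrophages, had 56.4 and 4.12 CPM, with ratios of -3.77 and -4.66. All 3 kept fewer than 300 reads in BLEO-HPS1. *Acod1*, which makes the metabolite itaconate in activated macrophages, had 56.4 and 6.95 CPM, with ratios of -3.02 and -2.98. *Slc6a4*, the serotonin transporter, had 49.6 and 8.39 CPM, with ratios of -2.56 and -2.93. *Rab44*, a large Rab GTPase of mast cells and granulocytes, had 119 and 10.9 CPM, with ratios of -3.45 and -3.85.

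Eosinophil, basophil and mast cell genes and alveolar type 2 cell genes were lower. Of 14 genes of the granulocyte list, 0 were called higher and 10 lower, with a median of -1.86 (-1.77 corrected), and their summed level was 903 CPM in PBS-HPS1 and 395 CPM in BLEO-HPS1. *Hdc*, which makes histamine, had 104 and 20.8 CPM and a ratio of -2.32 (-1.89 corrected). *Kit*, the receptor that mast cells need, had 34.9 and 35.2 CPM and a ratio of 0.02 (0.57 corrected). *Siglec5* and *Ear2* of this list are also in the alveolar macrophage list. Of 20 alveolar type 2 cell genes, 4 were called higher and 10 lower, with a median of -0.84 (-1.15 corrected). *Sftpc*, a surfactant protein that only these cells make in quantity, had 538 and 185 CPM, a ratio of -1.54 (-1.57 to -1.51) and -2.67 corrected. *Cxcl15*, a lung epithelial chemokine, had 39.1 and 6.03 CPM and a ratio of -2.69 (-2.07 corrected). *Lamp3*, a lamellar body protein also found in mature dendritic cells, had 14.6 and 0.95 CPM, with ratios of -3.91 and -2.68. *Hc*, complement C5, had 27.6 and 1.80 CPM, with ratios of -3.91 and -2.89. The members called higher included *Cd74*, *Lyz2* and *Napsa*, of which *Cd74* and *Lyz2* are also major macrophage transcripts. Other lung epithelial genes had 4 of 23 higher, 6 lower and a median of 0.04 before correction, beside 0.27 for all genes. After it 2 were higher and 5 lower, with a median of -0.39 beside 0.29 for all genes. *Krt19*, a keratin of simple epithelia, was lower at 203 and 60.4 CPM, whereas *Pdpn*, podoplanin, was higher at 14.9 and 93.1 CPM with a ratio of 2.64 (2.31 corrected).

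Antigen presentation genes were higher. Of 11 MHC class II genes, 10 were called higher and 0 lower, with a median of 2.23 (1.43 corrected, with 10 higher and 0 lower). *H2-Ab1*, a chain of the I-A molecule, had 1072 and 6406 CPM, a ratio of 2.58 and 1.51 corrected. *Cd74*, the chaperone of class II molecules, had 2353 and 11397 CPM, with ratios of 2.28 and 1.29. *H2-Ob*, a modulator of peptide loading, was the member within 2-fold, at 33.8 and 49.7 CPM. Of 20 class I and processing genes, 11 were called higher and 0 lower, with a median of 1.21, but 4 after correction with a median of 0.67. Of 20 dendritic cell genes, 8 were higher and 1 lower, with a median of 0.71 (0.64 corrected), led by *Mgl2*, a lectin shared with macrophages, at 93.3 and 492 CPM.

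Complement genes were higher beyond the C1q chains. Of 25 compared, 16 were called higher and 3 lower, with a median of 1.83 (1.80 corrected, with 17 higher and 2 lower). *C3*, the central component, had 248 and 881 CPM, with ratios of 1.83 and 1.80. Of 50 chemokine and chemokine receptor genes, 24 were called higher and 5 lower, with a median of 0.94 (0.81 corrected). *Ccl8*, a ligand for monocytes and Th2 cells, had 0.858 and 11.8 CPM and a ratio of 3.74 (3.07 corrected), and *Ccl9*, a macrophage chemokine, had 143 and 593 CPM and a ratio of 2.05 (2.84 corrected). *Cxcl2*, a neutrophil attractant, had 650 and 635 CPM. Of 41 interferon-stimulated genes, 14 were called higher and 3 lower, with a median of 0.57 (0.69 corrected). *Ifi27l2a* had 21.1 and 129 CPM and a ratio of 2.62 (1.54 corrected), and *Gbp4*, an interferon-induced GTPase, had 39.2 and 9.31 CPM and a ratio of -2.07 (-0.96 corrected). TNF and NF-κB response genes stood at the level of all genes before correction, with 8 of 34 higher, 7 lower and a median of 0.29. After correction 4 were higher and 5 lower, with a median of -0.18 beside 0.29 for all genes.

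Most matrix genes were higher. Of 31 collagen chains that reached 1 CPM (of 44 in the table), 17 were called higher and 2 lower, with a median of 1.30 (1.29 corrected, with 19 higher and 3 lower), and their summed level was 694 CPM in PBS-HPS1 and 4017 CPM in BLEO-HPS1. *Col1a1* (ENSMUSG00000001506, chr11:94936224-94953042), the larger part of type I collagen, had 75.1 and 982 CPM, a ratio of 3.71 (3.67 to 3.74) and 3.43 corrected. *Col1a2*, its partner chain, had 88.8 and 813 CPM, with ratios of 3.19 and 3.03. *Col3a1*, the fibrillar collagen of loose tissue, had 76.6 and 731 CPM, with ratios of 3.25 and 3.39. The basement membrane chain *Col4a1* had 131 and 321 CPM and a ratio of 1.30 (1.19 corrected), and *Col11a2* had 10.7 and 6.49 CPM with a ratio of -0.72 (-1.14 corrected). Of 65 matrix glycoproteins and proteoglycans, 47 were called higher and 5 lower, with a median of 1.83 (1.73 corrected, with 49 higher and 2 lower). *Fn1*, fibronectin, had 1058 and 5995 CPM, with ratios of 2.50 and 3.05. *Cilp*, a TGF-β-binding matrix protein, had 1.98 and 31.1 CPM, with ratios of 3.96 and 3.74. *Sparc*, which binds collagen, had 159 and 683 CPM and a ratio of 2.10 (1.58 corrected). *Thbs1*, thrombospondin 1, had 784 and 492 CPM and a ratio of -0.67 (-0.17 corrected). Of 47 enzymes and inhibitors that build or degrade the matrix, 26 were called higher and 3 lower, with a median of 1.13 (1.35 corrected). *Timp2* had 150 and 552 CPM and a ratio of 1.88 (1.54 corrected), and *Adamts1*, a protease, had 67.3 and 24.3 CPM and a ratio of -1.47 (-1.14 corrected). Of 11 laminin chains, 5 were higher and 1 lower, with a median of 0.78 (0.96 corrected).

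Genes of the cells that make matrix were counted in these libraries too. Of 45 fibroblast genes, 30 were called higher and 2 lower, with a median of 1.57 (1.23 corrected, with 27 higher and 1 lower). The summed level of the list was 2956 CPM in PBS-HPS1 and 6923 CPM in BLEO-HPS1. The list leaves out the collagens but holds some matrix genes, such as *Mfap5*, *Npnt* and *Loxl1*, so it is not separate from the matrix result. *Cygb*, cytoglobin, had 10.6 and 106 CPM and a ratio of 3.32 (2.57 corrected), and *Igfbp4*, which binds insulin-like growth factors, had 116 and 662 CPM and a ratio of 2.52 (2.13 corrected). Some of the list, such as *Lsp1* (573 and 1354 CPM), is also expressed by leukocytes. Of 24 smooth muscle and pericyte genes, 12 were higher and 1 lower, with a median of 0.93 (0.71 corrected). Their part in the matrix result was not tested. TGF-β family signalling genes did not share the shift, with 7 of 37 higher, 9 lower and a median of -0.04 (5 higher, 0 lower and 0.14 corrected). *Tgfb1* had 269 and 559 CPM and a ratio of 1.05 (0.60 corrected), and *Skil*, a repressor of SMAD signalling, had 223 and 48.1 CPM and a ratio of -2.21, which was -0.54 after correction. Endothelial genes were level with all genes, with 7 of 36 higher, 7 lower and a median of 0.09 (0.19 corrected).

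**Figure D3:**
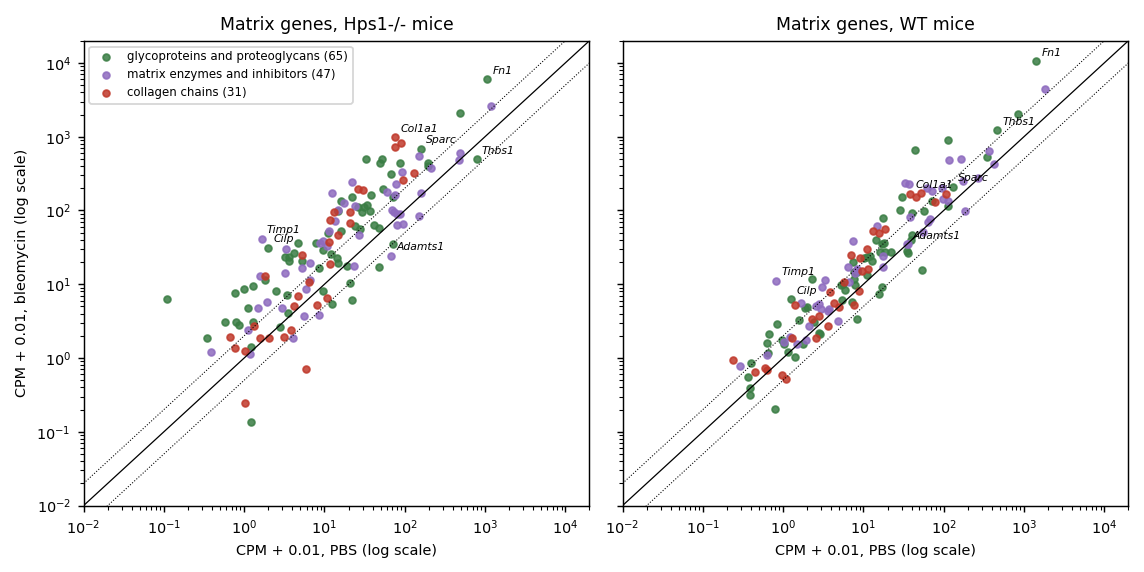
CPM with bleomycin (vertical log axis) against CPM with PBS (horizontal log axis) in *Hps1*-/- and WT mice, with a small offset added on both axes, 1 point per matrix gene compared in *Hps1*-/- mice and dotted lines at 2-fold. In *Hps1*-/- mice 17 of 31 collagen chains (red), 47 of 65 glycoproteins and proteoglycans (green) and 26 of 47 enzymes and inhibitors (purple) were called higher.

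Genes of ILC2s showed no common direction. Of 28 sort marker, general lymphoid and effector genes, 10 were called higher and 7 lower, with a median of 0.50 (0.49 corrected, with 5 higher and 2 lower). The largest ratio in this list, 5.80, was that of *Arg1*, which is also in a macrophage list. *Thy1*, which the sort selected for and which fibroblasts and T cells also carry, had 206 and 551 CPM, a ratio of 1.42 (1.40 to 1.45) and 0.57 corrected. *Icos*, also selected for, had 77.5 and 32.1 CPM, with ratios of -1.27 and -0.52. *Il1rl1* had 39.9 and 23.8 CPM, with ratios of -0.75 and 0.45. The 3 sort markers thus did not move together before correction, and after it all 3 lay within 2-fold. *Il7r*, the IL-7 receptor of innate lymphoid cells, had 205 and 76.9 CPM, with ratios of -1.42 and -0.31. Of 26 transcription factors of the lineage, 0 were higher and 6 lower, with a median of -0.07 (-0.08 corrected, with 1 higher and 1 lower). *Gata3* had 39.1 and 26.9 CPM and a ratio of -0.54 (-0.62 to -0.46), and *Rora*, a regulator that ILC2s depend on, had 78.4 and 13.2 CPM with ratios of -2.57 and -0.57. The cytokine genes *Il5* and *Il13* had 1.06 and 0.412 CPM and 1.43 and 0.269 CPM, with ratios of -1.31 (-2.04 to -0.73) and -2.31 (-3.23 to -1.68).

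Genes of T and B cells, whose antigens CD3 and CD45R were in the depleting mix, were counted as well. Of 26 T cell genes, 11 were called higher and 2 lower, with a median of 0.92 that was 0.39 after correction. *Cd3d*, a chain of the T cell receptor complex, had 65.2 and 195 CPM, with ratios of 1.58 and 1.07. Of 25 B and plasma cell genes, 11 were higher and 1 lower, with a median of 0.72 (0.68 corrected). *Cd79a*, a signalling chain of the B cell receptor, had 30.2 and 124 CPM, with ratios of 2.03 and 1.12. Immunoglobulin variable genes are best read by their sums. The 113 heavy chain genes summed to 85.3 CPM in PBS-HPS1 and 230 CPM in BLEO-HPS1, a log2 ratio of 1.43, and the 103 light chain genes to 129 and 354 CPM, a ratio of 1.46. Single members were low, and 33 of the 55 heavy chain and 33 of the 61 light chain genes compared reached 1 CPM in BLEO-HPS1 alone, which fixed their direction. Reads of near-identical members may have been split by the counting. *Ighm*, the constant gene of IgM, had 273 and 856 CPM and a ratio of 1.65 (1.01 corrected). NK and cytotoxic genes were lower before correction, with 3 of 26 higher, 10 lower and a median of -0.79, which was -0.15 after it. *Klra8*, an NK receptor, had 11 and 2.56 CPM with ratios of -2.09 and -1.77, while *Nkg7*, a granule protein, had 59.4 and 130 CPM with ratios of 1.13 and 0.12. Neutrophil genes had a median of 0.39 (0.11 corrected), with 5 of 17 higher and 1 lower.

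Cell cycle genes were higher. Of 45 DNA replication genes, 31 were called higher and 0 lower, with a median of 1.33 (1.28 corrected, with 28 higher and 0 lower). *Mcm5*, a subunit of the replicative helicase, had 36.1 and 160 CPM, with ratios of 2.15 and 1.90. *Pcna*, the sliding clamp, had 145 and 210 CPM and a ratio of 0.53 (0.50 corrected). Of 47 mitotic genes, 22 were higher and 3 lower, with a median of 0.81, and 29 were higher and 0 lower after correction, with a median of 1.30. *Cdc20*, an activator of the anaphase-promoting complex, had 9.35 and 59.6 CPM, with ratios of 2.67 and 1.84. *Smc4*, a condensin subunit with a GC-poor transcript, had 130 and 36.3 CPM, with ratios of -1.84 and -0.50. For p53 target genes, which respond to DNA damage, the uncorrected counts stood near those of all genes, with 11 of 39 higher and 8 lower. Their median was -0.11, beside 0.27 for all genes. After correction 7 were called in each direction, beside 17.5% higher and 8.41% lower of all genes, with a median of 0.01 beside 0.29. *Cdkn1a*, the p21 inhibitor of the cell cycle, had 327 and 604 CPM, with ratios of 0.88 and 0.18. *Phlda3*, another target, had 16.8 and 81.6 CPM, with ratios of 2.27 and 1.23. DNA damage signalling and break repair genes had 2 of 30 higher and 10 lower, with a median of -0.63 that was 0.22 after correction.

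Cytosolic heat shock genes were lower than the median of all genes. Of 18 compared, 1 was higher and 8 lower, with a median of -0.42 (-0.39 corrected, with 0 higher and 6 lower). *Hspa1b*, an inducible HSP70, had 304 and 56.5 CPM, a ratio of -2.43 (-2.48 to -2.38) and -3.06 corrected, though it shares most of its sequence with *Hspa1a*. *Hsph1*, an HSP110 chaperone, had 186 and 31.8 CPM, with ratios of -2.55 and -1.95. The constitutive *Hspa8* had 2294 and 2080 CPM, a ratio of -0.14 (0.25 corrected). Immediate early genes had 4 of 38 higher and 2 lower, with a median of 0.02 (-0.33 corrected), and unfolded protein response genes 7 of 39 higher and 4 lower, with a median of 0.27 (0.10 corrected).

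Lysosomal, glycolysis and antioxidant genes were higher. Of 46 lysosomal enzymes and membrane proteins, 29 were called higher and 0 lower, with a median of 1.27 (0.95 corrected, with 22 higher and 0 lower). *Psap*, prosaposin, had 3315 and 12568 CPM, with ratios of 1.92 and 1.36, and *Cd63*, a tetraspanin of lysosome-related organelles, had 99.9 and 690 CPM, with ratios of 2.79 and 2.17. Of 30 glycolysis genes, 17 were higher and 0 lower, with a median of 1.13 (1.01 corrected). *Gapdh* had 685 and 2383 CPM, a ratio of 1.80 (1.48 corrected). Of 31 NRF2 antioxidant genes, 16 were higher and 2 lower, with a median of 1.05 (0.66 corrected). Cholesterol synthesis and fatty acid oxidation genes were close to all genes, with medians of 0.42 and 0.33 (0.56 and 0.39 corrected). Vacuolar ATPase subunits had 6 of 19 higher and 2 lower, with a median of 0.75 (0.57 corrected). *Atp6v0d2*, a subunit enriched in alveolar macrophages and osteoclasts, had 334 and 59.1 CPM, with ratios of -2.50 and -1.77. Of the 20 genes of the BLOC and AP-3 complexes that are mutated in Hermansky-Pudlak syndrome or belong to the same complexes, 4 were higher and 1 lower, with a median of 0.50 (0.35 corrected). *Hps1* itself had 1647 reads in PBS-HPS1 and 1347 in BLEO-HPS1, 16.6 and 21.3 CPM, and a ratio of 0.36 (0.25 to 0.46), beside 38.3 CPM in PBS-WT and 48.4 CPM in BLEO-WT. A count per gene does not tell which exons these reads came from.

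Several housekeeping families had fewer calls after correction. Of 82 cytosolic ribosomal protein genes, which have short transcripts, 75 were called higher and 0 lower, with a median of 1.69, but 37 after correction with a median of 0.96. Their share of all reads went from 5.30% to 10.9%. *Rplp0*, of the ribosomal stalk, had 1452 and 5983 CPM, with ratios of 2.04 and 1.21. Of 79 nuclear-encoded subunits of oxidative phosphorylation, 65 were higher and 0 lower, with a median of 1.57, but 29 higher and 1 lower after correction with a median of 0.87. The mitochondrial genome's own transcripts for the same complexes went the other way, with 0 of 12 higher and 10 lower, a median of -1.30, and 3 lower with a median of -0.64 after correction. With GC content alone corrected for, the median turned to 0.24 and the ratio of *mt-Co1* (7672 and 3091 CPM) from -1.31 to 0.040. Mitochondrial ribosomal proteins had 51 of 77 higher (median 1.24), proteasome subunits 29 of 47 (median 1.28) and histone genes 24 of 30 (median 1.63), and these medians were 0.78, 0.68 and 0.80 after correction. Of 50 chromatin regulators with long transcripts, 0 were higher and 27 lower, with a median of -1.13 that was -0.24 after correction. *Tet2*, a DNA demethylase, had 51.0 and 8.88 CPM, with ratios of -2.52 and -1.05. Of 312 genes with a Zfp symbol, 17 were higher and 167 lower, with a median of -1.15, and 14 higher and 56 lower after correction with a median of -0.31.

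Several classes of noncoding transcript were lower. Of 151 genes of the TEC class, which are unspliced loci awaiting experimental test, 6 were called higher and 112 lower, with a median of -1.92, with 92 lower after correction with a median of -1.36. Of 15 sense-intronic genes, 0 were higher and 12 lower, and of 219 lincRNA genes 35 were higher and 96 lower, with a median of -0.58 (-0.60 corrected). *Firre*, a nuclear long noncoding RNA, had 20.2 and 2.31 CPM, with ratios of -3.11 and -2.76, and *Neat1*, the scaffold of paraspeckles, had 157 and 28.5 CPM with ratios of -2.46 and -0.74. *Malat1*, another nuclear RNA, had 852 and 567 CPM, and its ratio of -0.59 was 0.95 after correction. Processed pseudogenes, which copy spliced transcripts, were higher in 136 of 250 cases and lower in 26, with a median of 1.08, but higher in 16 and lower in 30 after correction with a median of 0.28.

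The counts of the following lists are read beside all genes, of which 26.6% were called higher and 19.6% lower. After correction these shares were 17.5% and 8.41%. T cell receptor variable genes, of which 34 of 136 reached 1 CPM, had 23 higher and 0 lower (median 1.20), with 4 higher after correction (0.47). Erythroid and platelet genes had 7 of 14 higher and 4 lower, with a median of 1.15 that was 0.27 after correction. TNF superfamily genes had 8 of 26 higher and 1 lower (median 0.71, 0.16 corrected), translation initiation factors 20 of 53 higher and 7 lower (0.46, 0.71 corrected) and aminoacyl-tRNA synthetases 13 of 34 higher and 0 lower (0.42, 0.59 corrected). Solute carriers had 73 of 232 higher and 30 lower (median 0.42, 0.47 corrected), integrin chains 8 of 29 in each direction (0.26, 0.50 corrected) and Rab GTPases 13 of 58 higher and 8 lower (0.09, 0.34 corrected). After correction their counts higher and lower were 46 and 17, 9 and 3, and 11 and 1. Kinesins and dyneins had 11 of 46 higher and 9 lower, and 10 higher and 1 lower after correction (medians -0.12 and 0.42). Hox genes had 4 of 12 higher and 0 lower, and 0 higher and 1 lower after correction (0.53 and 0.05). Dual-specificity phosphatases had 3 of 19 higher and 1 lower, and 0 in either direction after correction (0.48 and -0.05). Splicing factor genes had 6 of 54 higher and 18 lower (median -0.36, 0.00 corrected), nuclear and host long noncoding RNA genes 2 of 27 higher and 12 lower (-0.65, -0.18 corrected) and mesothelial genes 1 of 7 higher and 2 lower (-0.33, -0.30 corrected). All 4 compared genes of X inactivation and the Y chromosome were lower (-1.85), and 0 were called in either direction after correction (-0.21).

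**Figure D4:**
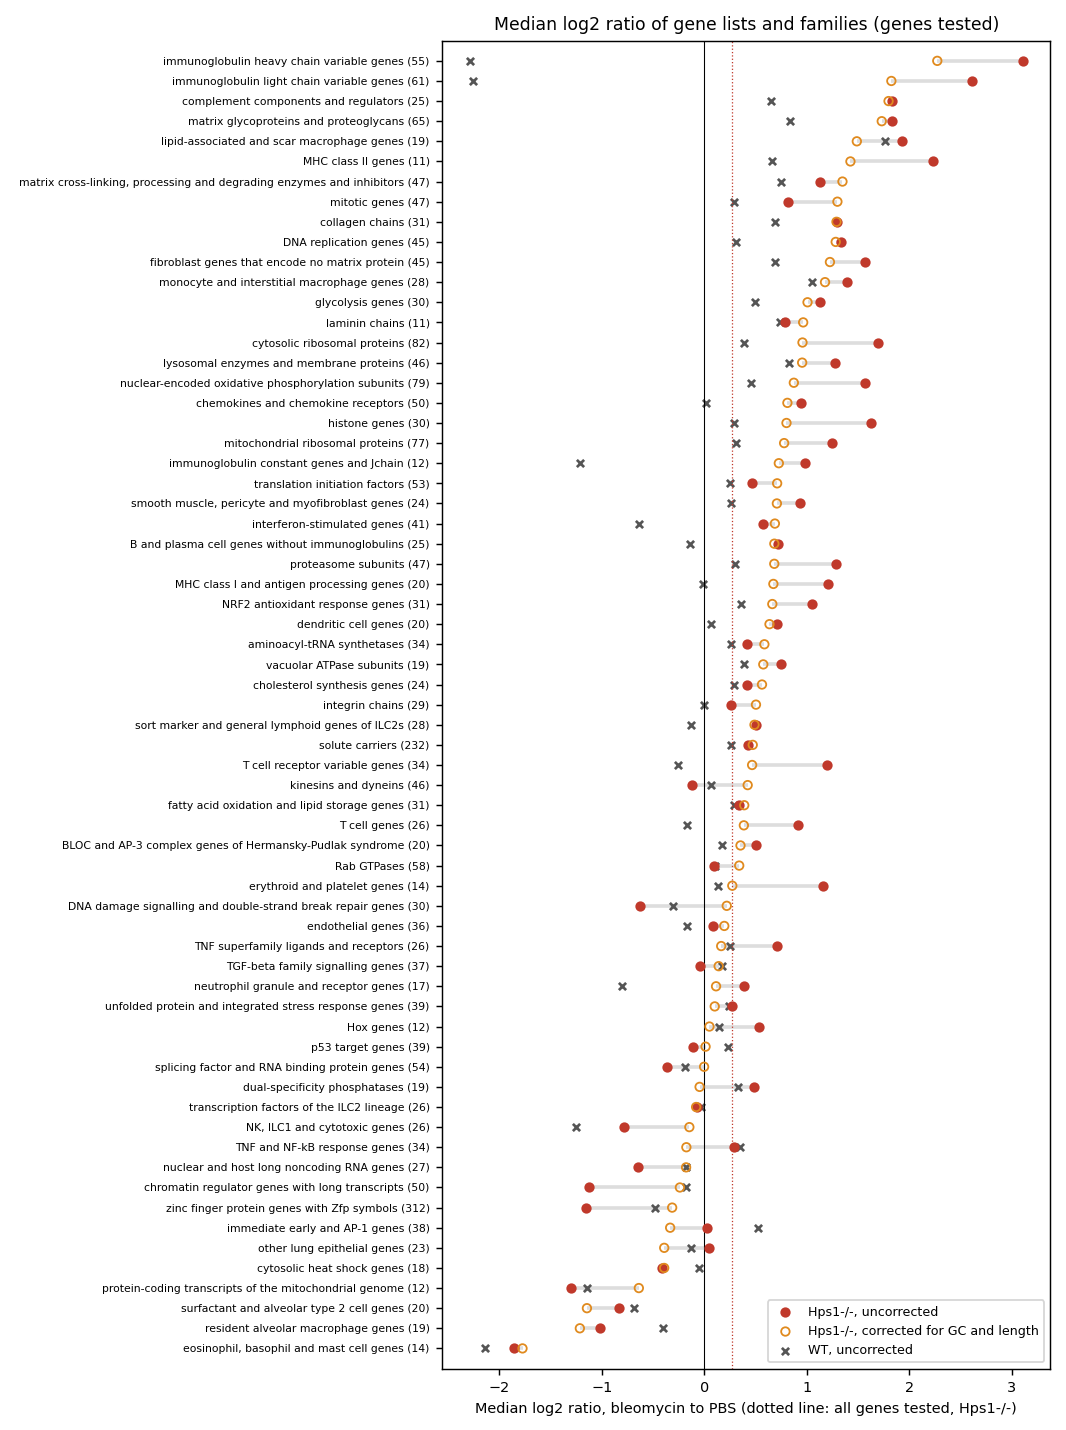
Median log2 ratio of bleomycin to PBS (horizontal axis) for each gene list or family with at least 10 genes compared, in *Hps1*-/- mice before (red) and after (open orange) correction for GC content and length and in WT mice (grey crosses), ordered by the corrected median. The fibroblast list, labelled as encoding no matrix protein, does hold some matrix genes. After correction MHC class II genes stood at 1.43, complement at 1.80, collagen chains at 1.29 and mitotic genes at 1.30, ribosomal proteins went from 1.69 to 0.96, while the immunoglobulin variable medians rest on genes that mostly passed the filter in BLEO-HPS1 alone, and eosinophil, basophil and mast cell genes and resident alveolar macrophage genes were the lowest at -1.77 and -1.22.

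The WT libraries gave the same contrast from other mice, with no library in common. Of 14191 genes compared in WT, 724 (5.1%) were called higher and 1159 (8.17%) lower, and 751 (5.3%) and 774 (5.46%) after correction, with a median of 0.10. Over 13867 genes compared in both genotypes, Pearson's r of the ratios was 0.67 and Spearman's rho 0.70, and r was 0.61 over 13844 genes after correction. The correlation is across genes, and both contrasts carry a trend with GC content and length in the same direction and set many cells against few (84166 and 22405 in WT). Of 3595 genes called higher in *Hps1*-/- mice, 531 were called higher in WT (14.8%), and these were 76.5% of the 694 called higher in WT. Of 2616 called lower, 704 were called lower in WT (26.9%), which were 72% of the 978 called lower in WT. Of all genes compared in each genotype, 5.1% were called higher and 8.17% lower in WT, and 26.6% and 19.6% in *Hps1*-/- mice. After correction these shares were 5.3% and 5.46%, and 17.5% and 8.41%. The corrected overlap was 519 of 2362 genes called higher in *Hps1*-/- mice (21.97%), which were 72.28% of the 718 in WT. For genes called lower it was 308 of 1012 (30.43%), which were 50.49% of the 610 in WT. With 1 library in each group, no difference between the genotypes was tested.

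Macrophage and other lists are given side by side for both genotypes. Their counts are read beside the shares of all genes called. These were 26.6% higher and 19.6% lower in *Hps1*-/- mice, and 5.1% and 8.17% in WT. The ratios of all genes were also more spread in *Hps1*-/- mice, with quartiles of -0.72 and 1.05, beside -0.33 and 0.40 in WT. The monocyte and interstitial macrophage list had a median of 1.39 in *Hps1*-/- mice and 1.05 in WT (1.18 and 0.91 corrected). Of its 28 genes, 20 were called higher and 0 lower in *Hps1*-/- mice, and 15 higher and 4 lower in WT. *Apoe* had ratios of 4.64 and 3.56. The list of lipid-handling and scar macrophages had a median of 1.93 in *Hps1*-/- mice and 1.76 in WT (1.49 and 1.57 corrected), and *Arg1* had ratios of 5.80 and 5.53. *Spp1* went from 114 to 907 CPM in WT, a ratio of 2.99 beside 2.33. The resident alveolar macrophage list had medians of -1.02 and -0.40 (-1.22 and -0.13 corrected). Of its genes, 10 of 19 were lower in *Hps1*-/- mice and 6 of 19 in WT, beside 19.6% and 8.17% of all genes. Within it *Ear1* had ratios of -3.47 and -3.00, *Chil3* -1.02 and -0.23, and *Mrc1* -1.23 and 0.12. Eosinophil, basophil and mast cell genes had medians of -1.86 and -2.14 (-1.77 and -1.83 corrected). Mitochondrial genome transcripts had -1.30 and -1.14, with 10 of 12 lower in each before correction (-0.64 and -0.58 corrected). MHC class II genes had a median of 2.23 in *Hps1*-/- mice and 0.66 in WT (1.43 and 0.42 corrected). In WT 0 of 11 were called, where 5.1% of all genes were called higher and 8.17% lower. DNA replication genes had 1.33 and 0.31 (1.28 and 0.29 corrected), with 0 of 45 called in WT, beside the same shares. Collagen chains had 1.30 and 0.69 (1.29 and 0.62 corrected), with *Col1a1* at 3.71 and 2.15 (3.43 and 1.94 corrected). Fibroblast genes had 1.57 and 0.69 (1.23 and 0.62 corrected), and ribosomal proteins 1.69 and 0.39 (0.96 and 0.32 corrected). For interferon-stimulated genes the medians were 0.57 and -0.64 (0.69 and -0.49 corrected), and for immunoglobulin constant genes 0.98 and -1.22 (0.73 and -1.35 corrected). *Oas1g* had ratios of 4.15 and 0.26. *Ngp*, a neutrophil granule protein, went from 2.86 to 15.8 CPM in *Hps1*-/- mice and from 74.8 to 11.7 CPM in WT, with ratios of 2.46 and -2.67.

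**Figure D5:**
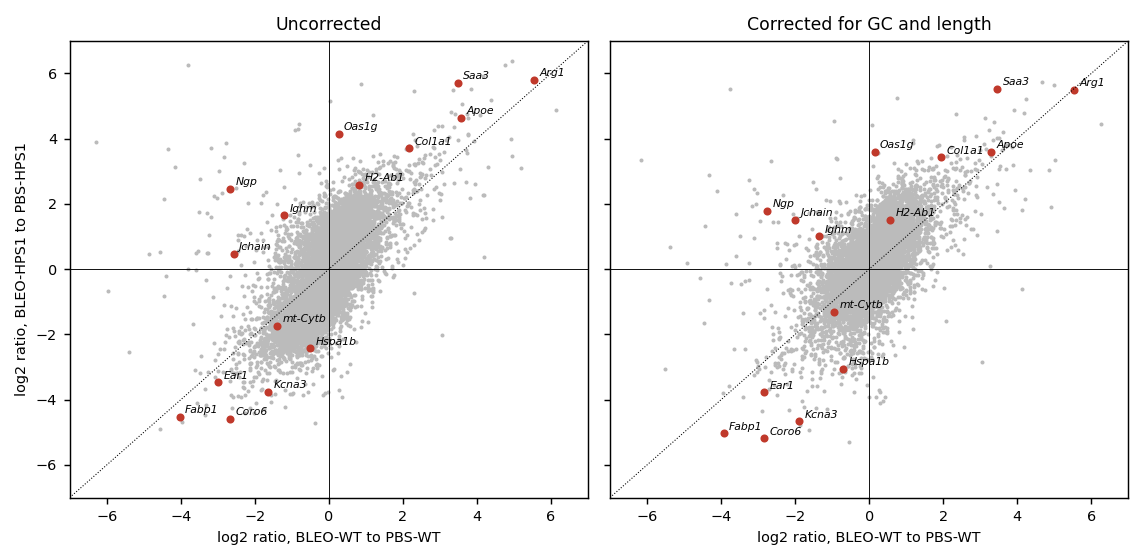
Log2 ratio of bleomycin to PBS in *Hps1*-/- mice (vertical axis) against that in WT mice (horizontal axis) before and once corrected for GC content and length, with 1 grey point per gene compared in both and labelled example genes in red. *Arg1* was high in both (5.80 and 5.53), *Ear1* low in both (-3.47 and -3.00), and *Ngp* high in *Hps1*-/- mice (2.46) and low in WT (-2.67).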

How the data were processed

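The authors deposited a table of raw counts, whole reads per Ensembl gene without normalization, for the 4 libraries, which were made with a SMARTER mRNA-Seq kit. The aligner, the counter, the genome build and whether strand was used are not given in the sources used here, so reads of overlapping or antisense genes cannot be told apart. Gene IDs were matched to GENCODE M21 (GRCm38; 49056 of 49315 found), which gave positions, biotypes and the length and GC content of each gene's longest transcript. List members with an older symbol were matched through RefSeq synonyms, and of rows sharing a symbol the one with most reads was kept.

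Counts were scaled with TMM factors (1.27 for PBS-HPS1 and 0.816 for BLEO-HPS1) in edgeR 4.0.16 under R 4.3.3, and log2 CPM used a prior count of 2. The floor of 3 reads was 0.0303 CPM in PBS-HPS1 and 0.0475 CPM in BLEO-HPS1. With 1 library per group, edgeR's tests were not run and no p-value is given. The correction took a loess curve (span 0.3, fitted to genes with a mean log2 CPM above 2) over GC content and log2 length from the ratios and kept the median. The scripts were tested on simulated data.

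The contrast, the 68 gene lists and families and the rules were chosen with earlier results of these data known. Genes named are taken from the 20 largest increases and decreases that are protein coding, reach 10 CPM and pass 2-fold by both ratios, ranked by the smaller ratio; from each list's 4 most abundant members and its extremes; and from *Hps1*, the sort markers and the lineage antigens. *Il5*, *Il13*, *Il4*, *Ptgdr2*, *Il7r*, *Spp1*, *Gpnmb*, *Pparg*, *Hspa1b* and *Hspa1a* were added after their values were seen. Alternatives were total counts, size factors of DESeq2 1.42.0, TMM factors from 2 libraries or without immunoglobulin genes, prior counts of 0.5 and 10, other filters, a log2 threshold of 2, and corrections for GC content with and without length.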

Additional observations from a re-analysis of the deposited data

Results flagged for a closer look

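Immunoglobulin variable genes drew attention because their levels moved in opposite directions in the genotypes, past 2-fold in each. Over all 113 heavy chain genes, the summed level had a log2 ratio of 1.43 in *Hps1*-/- mice and -1.25 in WT (106 and 44.6 CPM), a difference of 2.68. Over all 103 light chain genes the ratios were 1.46 and -1.36, a difference of 2.82. The medians over genes that reached 1 CPM were further apart, by 5.40 for heavy chain genes (3.11 over 55 genes and -2.29 over 35) and by 4.87 for light chain genes (2.61 over 61 genes and -2.26 over 39). Those medians come from different gene sets, in which most members passed the filter through the library where they were high, so their size is no measure of the change. Of the named genes, *Ighm* had ratios of 1.65 and -1.22, a difference of 2.87, and *Ngp* 2.46 and -2.67, a difference of 5.13. None of these differences was tested, since each group had 1 library.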

How the results depend on the processing

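A list's side of the median of all genes was kept in 58 of 68 lists after the GC and length correction, 61 after GC correction alone, 66 at a CPM of at least 10, 67 with at least 10 counts in both libraries and 56 with no filter. Another scaling shifts all genes alike and cannot change that side. The counts of called genes changed more. With total counts 1370 genes were higher and 4815 lower, and the median of all genes was -0.37. With no filter 12258 were lower and the median was -0.49. At a CPM of at least 10 the median was 0.39 and 1694 were lower. The GC and length correction gave 2542 higher and 1218 lower, and GC correction alone 1476 lower. At a log2 threshold of 2 there were 642 higher and 798 lower. The share of calls that were increases was 57.6% in the reported fit, 30.6% with no filter, 67.6% and 68.8% after correction with and without length, and 44.6% at a log2 threshold of 2. Under GC correction alone the mitochondrial genome's transcripts had a median of 0.24 in place of -1.30, and *mt-Co1* a ratio of 0.040 in place of -1.31. The cause was not tested. No paired analysis was possible because each group held 1 library, whose replicate number is only a name, and for the same reason no library could be left out. Depth limits genes of few reads, such as *Il5* and *Il13*, and the spread between mice is unknown for all.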
